A study of Mus musculus with 6 samples.

Results

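The matrix metalloproteinase and TIMP genes described here are 10 genes, 7 that encode secreted or membrane-bound proteases (Mmp9, Mmp2, Mmp7, Mmp10, Mmp13, Mmp14 and Mmp15) and 3 that encode tissue inhibitors of metalloproteinases (Timp1, Timp2 and Timp3). They were taken by symbol from 55487 genes in the deposited tables, and 9 of the 10 passed the count filter, as did 13755 genes in all. The list was chosen with measured knockout and control values of these libraries in view. The members' differences between the groups are therefore given as a description. Whether a member passed in the fit over all genes is stated as a property of that fit, which is no independent test of the member.

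Matrix metalloproteinases are zinc proteases that cut collagens, laminins and other matrix proteins, and also growth factors and receptors at the cell surface. Most are made as inactive proenzymes, and a TIMP protein blocks an active protease by occupying its catalytic site. In kidney tubules the 2 gelatinases, MMP2 and MMP9, cut type IV collagen of the tubular basement membrane, and TIMP3 is the inhibitor that stays bound to the matrix.

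RNA was sequenced in bulk from primary renal tubular epithelial cells of the mouse, in 3 libraries of an Elf3 knockout and 3 control libraries. The knockout cells were infected with an adenovirus that expresses Cre recombinase, labelled as inducing deletion of Elf3, a gene for an epithelial transcription factor of the ETS family. The control cells were infected with a control adenovirus and are labelled wild type. The sources used here do not say whether they carry a floxed allele, and the virus given differs along with the genotype. All 6 libraries carry the labels TNFα + IFNγ and batch 1, so cells without the 2 cytokines are not part of the comparison. The sources used here give neither the age and strain of the mice nor whether replicates are separate cultures or animals. The p-values therefore measure only the spread between these libraries, which may be technical.

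Total estimated counts lay between 8961780 and 10774200 per library, and 3 counts, taken as the floor, corresponded to 0.282 to 0.337 CPM (TMM-scaled counts relative to library size). Floors and counting intervals cover counting error only. Elf3 averaged 3.10 ± 1.12 CPM in the knockout and 22.0 ± 2.76 CPM in the controls (SD, n = 3 each), and its 3 knockout libraries lay below the lowest control. Of 12 tubular epithelial markers 11 were tested, of which 7 passed as higher and 3 as lower in the knockout. The share that passed was 90.9%, against 36.6% of all genes tested. Summed levels of the 12 were 7651 to 7833 CPM in the knockout and 5525 to 5759 CPM in the controls. Keratin genes hold most of that sum, and the proximal phosphate transporter gene Slc34a1 had 1 count in all. Of 8 endothelial markers 3 were tested and the VEGF receptor gene Kdr passed as higher (33.3%, against 36.6% of all genes tested). Summed levels of the 8 were 52.1 to 60.8 CPM in the knockout and 43.3 to 46.5 CPM in the controls. Flt1 held most of that sum, at 44.4 CPM in the knockout and 42.6 CPM in the controls, without passing. Kdr stood at 8.07 CPM in the knockout and 1.45 CPM in the controls. The endothelial surface gene Pecam1 had 5 counts over the knockout and 1 over the controls. In bulk RNA, fewer cells of a type and less RNA per cell cannot be told apart.

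Promoter sequences are shown for the 3 members that were higher in the knockout and hold the letters AGGAAG, a form of the ETS family's GGAA core, in the window given by RefSeq. RefSeq promoter entries (GRCm38.p6, 250 bases before to 50 after the start site) matched 8 of the 10 members. Mmp9 and Mmp2 have no entry. The 250 bases before the start site follow, on the plus strand and 5′ to 3′, with AGGAAG in capitals.
Timp3 (chr10:86300162-86300411): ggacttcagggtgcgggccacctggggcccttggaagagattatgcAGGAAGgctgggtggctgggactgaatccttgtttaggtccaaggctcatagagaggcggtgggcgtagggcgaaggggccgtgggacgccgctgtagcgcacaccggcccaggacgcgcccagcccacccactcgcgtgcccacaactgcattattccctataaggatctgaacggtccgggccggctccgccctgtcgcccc
Mmp14 (chr14:54431348-54431597): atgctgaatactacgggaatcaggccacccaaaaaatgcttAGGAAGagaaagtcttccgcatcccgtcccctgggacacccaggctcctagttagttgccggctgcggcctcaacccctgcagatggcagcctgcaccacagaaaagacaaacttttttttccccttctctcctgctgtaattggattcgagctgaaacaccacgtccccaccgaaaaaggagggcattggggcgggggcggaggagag
Timp1 (chrX:20869916-20870165): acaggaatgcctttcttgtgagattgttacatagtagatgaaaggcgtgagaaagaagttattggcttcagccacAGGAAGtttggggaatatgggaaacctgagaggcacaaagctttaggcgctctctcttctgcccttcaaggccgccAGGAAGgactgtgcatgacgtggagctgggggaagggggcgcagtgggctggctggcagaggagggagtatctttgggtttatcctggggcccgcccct

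Searched on both strands, AGGAAG occurred in the windows of 5 of the 8 members with an entry and in 35.4% of 32851 mouse promoter windows of the same length. Timp3 has it at position -204 from the start site, Mmp14 at -209, and Timp1 at -175 and -99 in the bases shown and at 40 beyond them. The shorter GGAA, which every AGGAAG contains, occurred in the windows of 8 of 8 members and in 96.0% of all promoter windows. A match is a run of letters and not a measured binding site. Of the other members, Mmp13, which did not pass, and Mmp7, which was not tested, hold AGGAAG as well, while Mmp10, Mmp15 and Timp2 have none in their windows.

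A second motif, TGANTCA, the letters bound by AP-1 proteins of the FOS and JUN families, was searched on both strands and occurred in 7.8% of all promoter windows. Of the 8 members with an entry 3 had it, and all 3 lie in the metalloproteinase cluster on chromosome 9, with other genes between them. Mmp7 has a second window, with 0 matches. A member was counted if any of its windows matched, while the share over all promoters is per window. These stretches of 67 bases (GRCm38.p6, plus strand, 5′ to 3′) are shown because the cluster members share the motif, with TGANTCA in capitals and, in Mmp13, AGGAAG as well.
Mmp13 (chr9:7272449-7272515): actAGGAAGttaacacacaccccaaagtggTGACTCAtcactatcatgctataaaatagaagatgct
Mmp10 (chr9:7502249-7502315): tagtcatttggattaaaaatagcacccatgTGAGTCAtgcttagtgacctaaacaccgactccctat
Mmp7 (chr9:7691997-7692063): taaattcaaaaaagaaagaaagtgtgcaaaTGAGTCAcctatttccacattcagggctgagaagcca

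The motif starts 35 bases before the start site in Mmp13 and 63 bases before it in both Mmp10 and Mmp7. All 3 genes were low in both groups, as given with the cluster.

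At an adjusted p under 0.05 (edgeR's quasi-likelihood test over all genes tested, Benjamini-Hochberg adjustment), 5 members were higher, 4 did not pass and Mmp7 was not tested. The 5 are the protease genes Mmp9, Mmp2 and Mmp14 and the inhibitor genes Timp1 and Timp3. Among all genes tested, 36.6% passed, 18.3% as higher and 18.3% as lower in the knockout. Libraries of the groups did not overlap for 6 members, 5 above the controls and Timp2 below them, and for 46.7% of all genes tested. The median log2 fold change was 0.35 over the 9 members tested and -0.01 over all genes tested. Because the same contrast was in view when the list was chosen, nothing is read from these counts. Nearest the threshold were Timp1, with a log2 fold change of 0.35 among those that passed, and Mmp13, with 0.37 among those that did not.

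**Figure D1:**
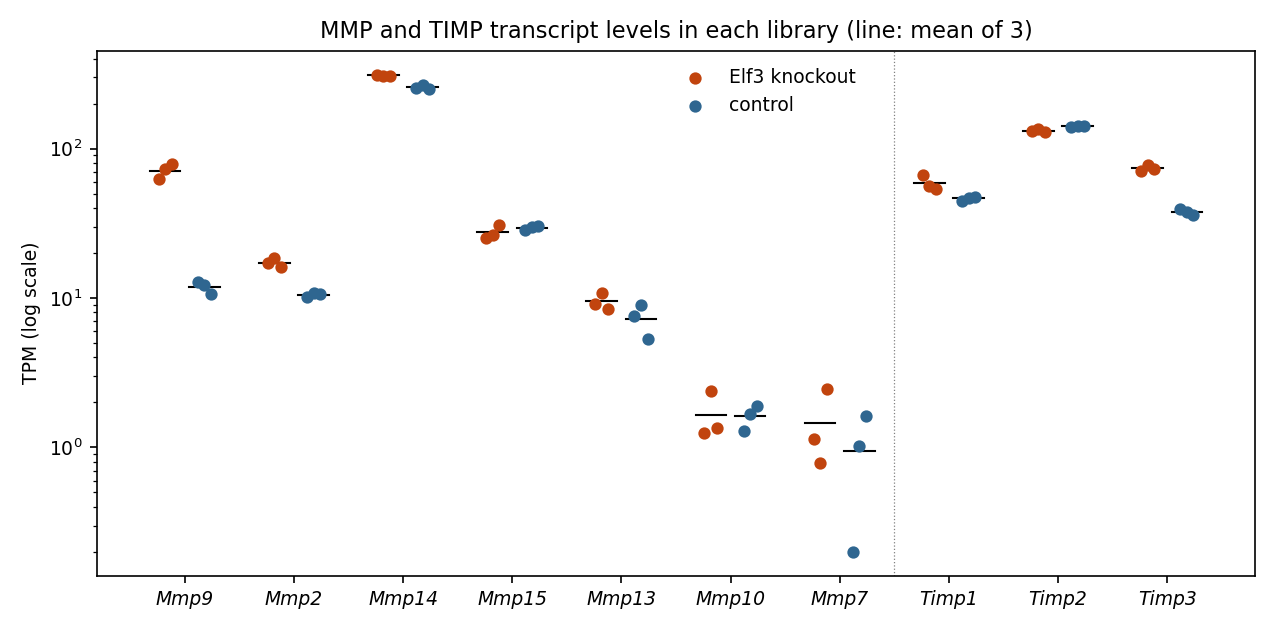
Level of each member in each library, in TPM (abundance scaled for transcript length and library size) on a log axis, with the Elf3 knockout left of the control and a line at each group's mean. Mmp14 at 308 to 313 TPM in the knockout and 252 to 265 TPM in the controls is the highest, and the groups are furthest apart for Mmp9.

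Mmp9 (ENSMUSG00000017737, mm10 chromosome 2, 164940780 to 164955850, plus strand) encodes gelatinase B, a secreted protease that cuts type IV collagen and gelatin. Its TPM was 62.8, 72.6 and 78.5 in the 3 knockout libraries, against 12.8, 12.2 and 10.7 in the 3 control libraries. Every knockout library lay above every control, with a wide gap between the groups. From counts of 925, 1207 and 1299 in the knockout and 196, 180 and 146 in the controls, the fitted log2 fold change was 2.72 (SE 0.08), or 6.57-fold higher in the knockout. The knockout libraries also differed among themselves by more than sampling noise, with a chi-square of 19.8 on 2 degrees of freedom and a coefficient of variation of 9.50%. This spread is small beside the difference between the groups.

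Mmp9 is also made by neutrophils and macrophages, so the level of their markers is given here. Of 15 such markers 11 were tested and 0 passed in either direction by edgeR's quasi-likelihood test (36.6% of all genes tested passed), DESeq2 or limma-voom. At an unadjusted p under 0.05 the count was 1, lower, in edgeR and in limma-voom, and 0 in DESeq2. With library totals Csf1r passed as lower. The list had summed levels of 53.5 to 55.2 CPM in the knockout and 57.4 to 65.4 CPM in the controls. The neutrophil genes S100a8 and S100a9 had 0 counts in all 6 libraries. The macrophage growth factor receptor gene Csf1r, at 19.5 CPM in the knockout and 23.4 CPM in the controls, held the largest part of that sum, and its exons overlap those of Hmgxb3. The complement gene C1qa stood at 5.12 CPM in the knockout and 3.90 CPM in the controls, without passing. C1qb, at 4.06 and 5.20 CPM, and C1qc, at 3.37 and 4.03 CPM, lay the other way, also without passing. The median log2 fold change of the markers tested was -0.11.

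Mmp2 (ENSMUSG00000031740, mm10 chromosome 8, 92827291 to 92853420, plus strand) encodes gelatinase A, which shares type IV collagen and gelatin as substrates. Its TPM was 17.1, 18.4 and 16.1 in the knockout libraries, against 10.1, 10.9 and 10.6 in the controls, and no library of one group reached the other. The fitted log2 fold change was 0.73 (SE 0.11), or 1.66-fold. Fibroblasts are a known source of Mmp2. Of 10 fibroblast markers 8 were tested, of which 3 passed as higher and 1 as lower (50%, against 36.6% of all genes tested). The summed level was 331 to 342 CPM in the knockout and 267 to 305 CPM in the controls. Acta2, smooth muscle actin, made up most of that sum, Lum had 0 counts in all libraries and Dcn had 5 in each group. The part of the fibroblast markers in the Mmp2 difference was not tested. Mmp9 made up 80.5% ± 2.29 of the summed TPM of the 2 gelatinase genes in the knockout and 53.0% ± 2.82 in the controls (SD, n = 3 each).

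Mmp14 (ENSMUSG00000000957, mm10 chromosome 14, 54431612 to 54445364, plus strand) encodes MT1-MMP, a membrane-bound collagenase that activates pro-MMP2 in a complex with TIMP2. It was the most abundant member, at 313, 308 and 308 TPM in the knockout and 255, 265 and 252 TPM in the controls. The groups did not overlap, and the fitted log2 fold change was 0.27 (SE 0.04), or 1.20-fold. The controls varied by 1.24% and the knockout libraries by 2.68% (coefficient of variation of CPM). Timp2, the partner in that complex, had a log2 fold change of -0.09 and did not pass.

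Mmp15 (ENSMUSG00000031790, mm10 chromosome 8, 95352268 to 95375080, plus strand) encodes MT2-MMP, a second membrane-bound protease. Its TPM was 25.3, 26.4 and 30.6 in the knockout and 28.5, 29.9 and 30.4 in the controls. One knockout library lay above all controls and the other 2 below them, so the groups overlapped. The log2 fold change was -0.11 (SE 0.07), and the gene did not pass.

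**Figure D2:**
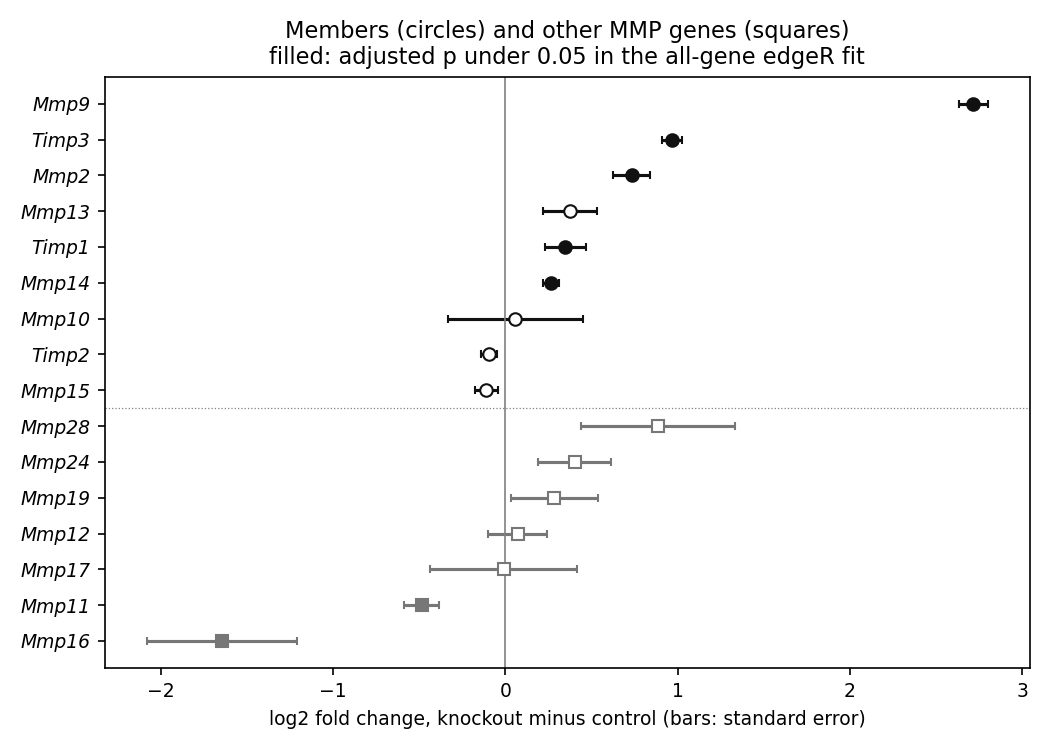
Log2 fold change, Elf3 knockout minus control, of the members tested (circles) and of the other metalloproteinase genes tested (squares), with standard errors as bars and a line at 0. Filled symbols passed the adjusted p of 0.05. Among the members Mmp9 is at 2.72, Timp3 at 0.97 and Mmp2 at 0.73, and Mmp10, Mmp15 and Timp2 lie close to 0. Among the other genes Mmp28 is at 0.89, without passing, and Mmp16 at -1.64.

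The protease genes Mmp13, Mmp10 and Mmp7 lie in a cluster of 10 metalloproteinase genes spanning 427.1 kb of chromosome 9 (mm10, GENCODE M21). Mmp13 (ENSMUSG00000050578, mm10 chromosome 9, 7272514 to 7283331, plus strand), collagenase 3, was the highest of the 3 at 9.08, 10.9 and 8.49 TPM in the knockout and 7.62, 8.93 and 5.29 TPM in the controls. The highest control lay above the lowest knockout library, and control replicate 3 was lower than the others. The log2 fold change of 0.37 (SE 0.16) did not pass, and the controls had a coefficient of variation of 24.9%. Leaving out 1 library moved the value in both directions. It was 0.47 without knockout replicate 3 and 0.54 without control replicate 2, where the gene passed, and 0.27 without knockout replicate 2 and 0.21 without control replicate 3, where it did not.

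Mmp10 (ENSMUSG00000047562, mm10 chromosome 9, 7502352 to 7510240, plus strand) encodes stromelysin 2, which cuts matrix proteins and activates other proenzymes. It had 10, 22 and 12 counts in the knockout and 12, 15 and 15 in the controls, and the log2 fold change of 0.06 (SE 0.39) did not pass. The sign of this value turned in 3 of 16 alternatives. Mmp7 (ENSMUSG00000018623, mm10 chromosome 9, 7692090 to 7699585, plus strand) encodes matrilysin, a small protease known from injured tubular epithelium. It had 5, 4 and 12 counts in the knockout and 1, 5 and 7 in the controls. The ratio of the sums of 21 and 13 counts, allowing for library size, was 1.62, with a 95% exact interval of 0.773 to 3.52, so a difference was not detectable at this depth. Exons of Mmp7 overlap those of AV064505 on the opposite strand.

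Outside the members, the macrophage elastase gene Mmp12 was the other cluster gene well above the floor, at 10.9 ± 1.19 TPM in the knockout and 10.2 ± 2.14 TPM in the controls (SD, n = 3 each), and it did not pass. Mmp1a and Mmp1b had no count, and the remaining 4 (Mmp3, Mmp8, Mmp20 and Mmp27) had between 1 and 12 counts over a group. Of 8 genes flanking the cluster, 1 was lower (12.5%, against 36.6% of all genes tested that passed) and 7 did not pass. The one lower was Dync2h1, a dynein heavy chain gene of cilia, at 10.4 ± 0.725 CPM in the knockout and 18.5 ± 1.01 CPM in the controls (log2 fold change -0.83, adjusted p = 4.72e-06).

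**Figure D3:**
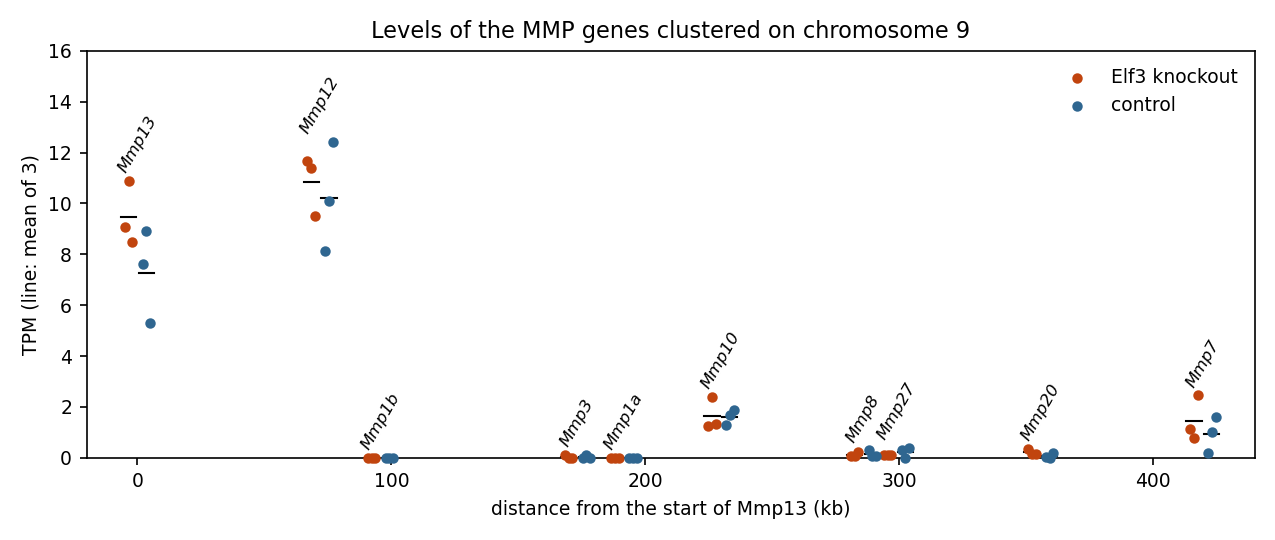
TPM of the 10 metalloproteinase genes clustered on chromosome 9, by distance in kb from the start of Mmp13, with 1 point per library, the Elf3 knockout left of the control and a line at each group's mean. Mmp13 and Mmp12 lie between 5.29 and 12.4 TPM with overlapping groups, and the other genes lie below 2.5 TPM in every library.

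Among the inhibitors, Timp3 had the largest difference. Its TPM was 71.2, 77.5 and 73.2 in the knockout and 39.5, 37.7 and 36.1 in the controls, close together within each group and far apart between them. The fitted log2 fold change was 0.97 (SE 0.06), or 1.96-fold. Timp3 (ENSMUSG00000020044, mm10 chromosome 10, 86300372 to 86349506, plus strand) lies inside the synapsin gene Syn3, which runs on the opposite strand, and their exons share 1733 bases, which is 21.3% of the exonic bases of Timp3. The counts of Syn3 were between 30.16% and 33.3% of those of Timp3 in all 6 libraries, and the log2 fold change of Syn3 was also 0.97. The sources used here do not say whether reads were counted by strand, so reads of the 2 genes in the shared bases cannot be told apart. The Timp3 count is the larger in every library.

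Timp1 (ENSMUSG00000001131, mm10 chromosome X, 20870166 to 20874735, plus strand) encodes a secreted inhibitor that binds pro-MMP9. Its TPM was 66.7, 56.3 and 53.7 in the knockout and 44.6, 46.7 and 47.8 in the controls. The groups did not overlap, and knockout replicate 1 was higher than the other 2. The log2 fold change was 0.35 (SE 0.12), or 1.27-fold. It was 0.24 without knockout replicate 1 and was 0.33 without control replicate 1, and in both the gene no longer passed. Timp1 lies in an intron of Syn1 on the opposite strand and shares no exonic base with it. The counts of Syn1 were 16.28% to 25.91% of those of Timp1 in the knockout and 11.38% to 13.91% in the controls.

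Timp2 (ENSMUSG00000017466, mm10 chromosome 11, 118301069 to 118355740, minus strand), the inhibitor that takes part in the activation of pro-MMP2, was the most abundant of the 3 at 130, 135 and 130 TPM in the knockout, against 141, 143 and 141 TPM in the controls. Every knockout library lay below every control, but the log2 fold change of -0.09 (SE 0.05) did not pass with TMM scaling. Scaled by library totals it was -0.12 and passed as lower.

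Summed over the 7 protease genes, TPM was 438 ± 7.97 in the knockout and 319 ± 9.50 in the controls (SD, n = 3 each), 1.37 times the control level. Summed over the 3 inhibitor genes, it was 264 ± 6.60 in the knockout and 226 ± 1.39 in the controls, 1.17 times the control level. The ratio of protease to inhibitor transcripts was 1.60, 1.64 and 1.73 in the knockout libraries, against 1.40, 1.45 and 1.39 in the controls. The 3 knockout ratios lay above the 3 control ratios, but the measure compares transcripts and not proteins or activity. With all 27 metalloproteinase and TIMP genes the ratio was 1.79, 1.81 and 1.90 in the knockout and 1.64, 1.74 and 1.63 in the controls. The gap between the groups was thus smaller than with the members alone. The member sums rest on the few abundant members.

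The make-up of both sums differed between the groups. Mmp9 made up 16.3% ± 1.52 of the protease transcripts in the knockout and 3.72% ± 0.314 in the controls, while Mmp14 made up 70.7% ± 1.92 in the knockout and 80.6% ± 0.196 in the controls. Without Mmp9 the protease sum was 367 TPM in the knockout and 307 TPM in the controls, 1.19 times the control level. Without Mmp14 it was 129 TPM in the knockout and 61.9 TPM in the controls, 2.08 times the control level. Among the inhibitors Timp3 made up 28.0% ± 1.26 in the knockout and 16.8% ± 0.767 in the controls, while Timp2 made up 49.8% ± 1.04 in the knockout and 62.7% ± 0.125 in the controls.

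**Figure D4:**
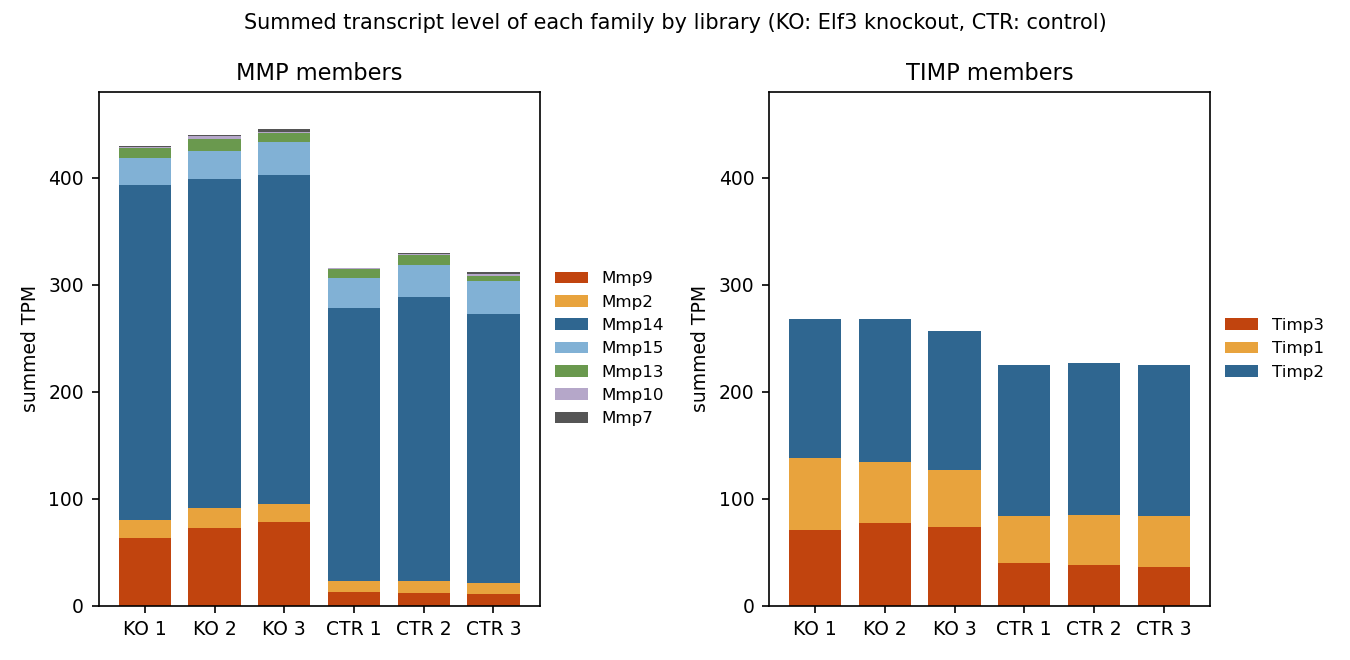
Summed TPM of the 7 protease genes and of the 3 inhibitor genes in each library, as stacked bars from 0, with the Elf3 knockout libraries left of the controls. The protease sum is 430 to 445 TPM in the knockout and 312 to 330 TPM in the controls, and the band of Mmp9 is wider in each knockout library.

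Of the whole family of 27 genes in the tables (23 metalloproteinases and 4 TIMPs), 16 were tested. Of these, 5 were higher, 2 lower and 9 did not pass, with a median log2 fold change of 0.28. All 5 higher genes are members, chosen with this contrast in view, so nothing is read from that median. Outside the members 7 were tested, of which 0 were higher, 2 lower and 5 did not pass, with a median of 0.07. Of these 28.6% passed, against 36.6% of all genes tested, whose median was -0.01. The 10 members held 89.4% to 94.3% of the family's summed TPM in each library. Both genes called lower are outside the members. Mmp11, stromelysin 3, averaged 29.9 ± 5.91 CPM in the knockout and 41.6 ± 1.77 CPM in the controls (SD, n = 3 each; log2 fold change -0.49, edgeR adjusted p = 0.0003), and its exons overlap those of Chchd10. The membrane-type protease gene Mmp16 averaged 0.698 ± 0.319 CPM in the knockout and 2.24 ± 0.815 CPM in the controls (log2 fold change -1.64, edgeR adjusted p = 0.0034). It rests on few counts, 5, 5 and 11 in the knockout and 14, 26 and 26 in the controls. On TPM its groups overlapped, at 0.19, 0.69 and 1.47 in the knockout and 1.41, 0.88 and 2.93 in the controls. Mmp16 lost its call in the 3 settings on TPM and Mmp11 in the one without a filter.

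The list of genes that activate, bind or inhibit metalloproteinases holds 29 genes. Of the 24 tested, 10 were higher, 6 lower and 8 did not pass, with a median log2 fold change of 0.12. The share that passed was 66.7%, against 36.6% of all genes tested. This list and those below were written with earlier results of these data known, so nothing is read from their shares. Plg, the gene of plasminogen, whose active form plasmin can activate proenzymes, had 0 counts. Lrp1, an endocytic receptor that clears MMP2, MMP9 and TIMP complexes, rose to 139 ± 13.0 CPM in the knockout, against 44.8 ± 2.62 CPM in the controls (SD, n = 3 each; edgeR adjusted p = 9.19e-18). The integrin gene Itgb3, whose product with the αv chain binds MMP2, rose 2.82-fold (edgeR adjusted p = 8.48e-19). Itgav, the gene of the αv chain, chosen after its value was seen, fell to 442 ± 48.6 CPM in the knockout, against 639 ± 16.5 CPM in the controls (edgeR adjusted p = 2.99e-09). Lcn2, whose product lipocalin 2 binds human MMP9, fell to 30.2 ± 0.932 CPM in the knockout, against 144 ± 4.85 CPM in the controls (edgeR adjusted p = 8.69e-22). Lcn2 and Mmp9 thus differed in opposite directions. Reck, chosen after its value was seen, encodes a membrane inhibitor of metalloproteinases and stood at 2.21 ± 0.859 CPM in the knockout and 2.18 ± 0.711 CPM in the controls.

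Of 14 listed genes of the ADAM and ADAMTS protease families, in which TIMPs can inhibit some but not all products, 11 were tested. Of these, 5 were higher, 4 lower and 2 did not pass, with a median log2 fold change of 0.22. The share that passed was 81.8%, against 36.6% of all genes tested. The aggrecanase genes did not move together. Adamts1 and Adamts5 fell, by 1.66 and 1.84 on the log2 scale (edgeR adjusted p = 5.69e-23 and 9.00e-23), while Adamts4, chosen after its value was seen, rose by 0.61 (edgeR adjusted p = 3.86e-05). TIMP3 is the TIMP best known to inhibit ADAMTS5. Adam12 rose 1.38-fold to 696 ± 33.1 CPM, against 503 ± 6.93 CPM in the controls (edgeR adjusted p = 5.30e-10). Adam19 rose 2.57-fold (edgeR adjusted p = 1.06e-09). The summed level of the list was 1550 to 1637 CPM in the knockout and 2283 to 2326 CPM in the controls. The largest falls within that sum were those of Adamts1, at 262 CPM in the knockout and 831 CPM in the controls, and Adamts5, at 114 and 408 CPM. The sum therefore does not describe the list as a whole, in which 5 genes were higher.

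The list of transcription factors that act on metalloproteinase promoters (AP-1, ETS, NF-κB, RUNX and others) had 24 of 25 genes tested. Of the 24, 10 were higher, 8 lower and 6 did not pass, with a median log2 fold change of 0.09. The share that passed was 75%, against 36.6% of all genes tested. Fosl1, which encodes the AP-1 subunit FRA-1, rose to 37.0 ± 1.79 CPM in the knockout, against 13.0 ± 1.28 CPM in the controls (edgeR adjusted p = 5.25e-13), and its exons overlap those of Ccdc85b. The related gene Fosb rose 2.93-fold (edgeR adjusted p = 6.97e-09). Among the other AP-1 genes listed, Fos and Junb were higher, Fosl2 was lower, and Jun and Jund did not pass. The ETS gene Etv4 rose 1.80-fold (edgeR adjusted p = 2.83e-11), while the epithelial ETS gene Ehf fell to 35.5 ± 2.61 CPM in the knockout, against 78.7 ± 5.26 CPM in the controls (edgeR adjusted p = 1.55e-13). Mmp13 and Mmp10, whose windows hold the AP-1 letters, did not pass, and Mmp7 was not tested. The part of these factors in the levels of the members was not tested.

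Of 28 matrix and surface substrate genes 25 were tested, 11 were higher, 9 lower and 5 did not pass. The median log2 fold change was 0.20. The share that passed was 80%, against 36.6% of all genes tested. Osteopontin, Spp1, a substrate of MMP9, fell to 4350 ± 414 CPM in the knockout, against 10695 ± 562 CPM in the controls (edgeR adjusted p = 7.68e-20), and its exons overlap those of Gm42793. The laminin-332 genes Lama3 and Lamb3 rose 1.94-fold and 1.82-fold (edgeR adjusted p = 5.05e-16 and 4.39e-15), and exons of Lama3 overlap those of Gm29200. The type IV collagen gene Col4a5 fell by 1.25 on the log2 scale (edgeR adjusted p = 2.38e-17). Col4a3, Col4a4 and Col4a6 also passed as lower, with log2 fold changes of -0.35, -0.20 and -1.61. By contrast Col4a1 and Col4a2, which form the common type IV network, were higher, with log2 fold changes of 0.28 and 0.46. All of these type IV collagen genes except Col4a5 were chosen after their values were seen. The exons of Col4a1 and Col4a2 overlap each other at their starts.

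**Figure D5:**
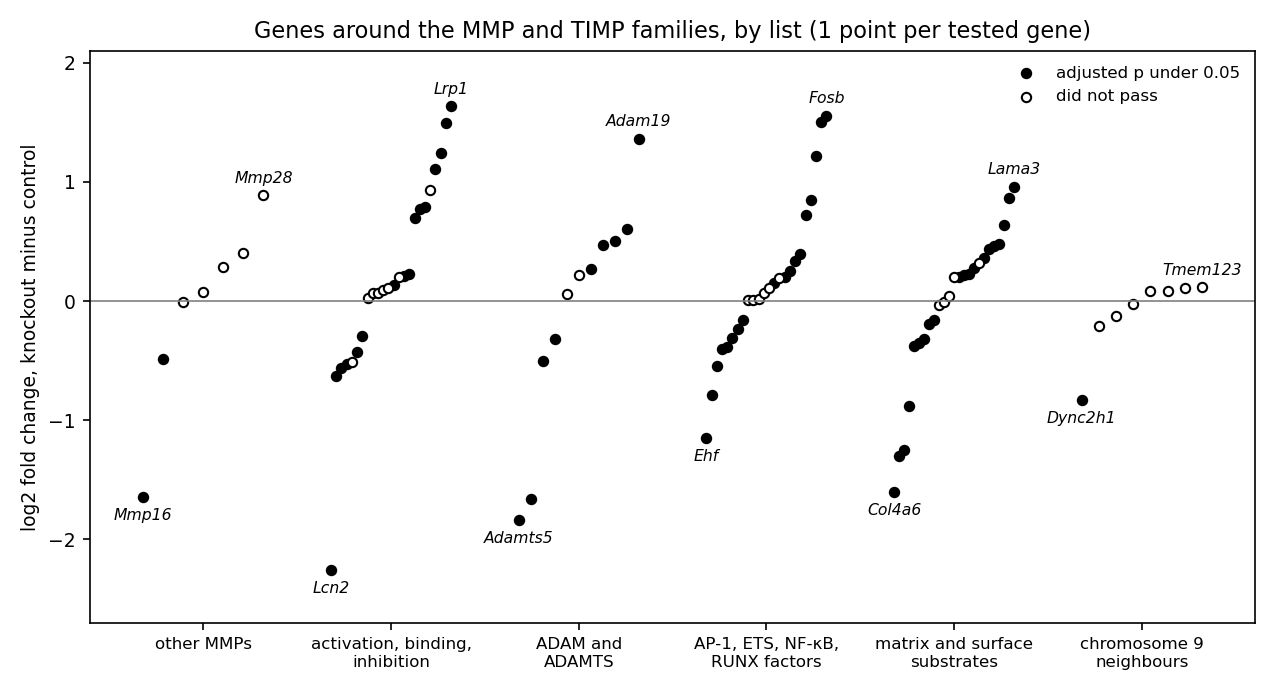
Log2 fold change of the tested genes of each list, Elf3 knockout minus control, with 1 point per gene in order of its value, filled where the adjusted p was under 0.05, and a line at 0. The outermost genes are named, from Lcn2 at -2.26 to Lrp1 at 1.64, and each list holds genes on both sides of 0.

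Genes nearest to each member were found by the distance between centred log2 CPM profiles over the 6 libraries, among 10592 genes tested (10593 for Mmp10) with a mean of at least 5 CPM. Such a distance mostly follows the difference between the groups, and the points share library and depth. Among the 3 genes nearest to Mmp9 were the phosphodiesterase gene Pde2a at a distance of 0.24 and Crispld2 at 0.49. The gene nearest to Timp3 was Lama3 at 0.070, followed by Ndrg2 at 0.094 and the cell cycle factor gene E2f8 at 0.096. The gene nearest to Mmp2 was Klhdc8a at 0.099, and that nearest to Mmp14 was the sphingosine 1-phosphate transporter gene Spns2 at 0.018. For Timp1 it was Gpx4, a lipid peroxidase gene, at 0.086, and for Timp2 the splicing factor gene Hnrnpm at 0.031. The genes nearest to Mmp13, Mmp15 and Mmp10 were Cdyl2, Tubg1 and Poli, at 0.18, 0.048 and 0.24.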

How the data were processed

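RNA was enriched for mRNA before library preparation, per the labels' protocols. Estimated counts per gene were deposited by the authors without normalisation, and 93.3% of nonzero counts were whole (within 1e-06). A second table of TPM, scaled for transcript length, was deposited by the authors. featureCounts, Salmon and mm10 are named in the submitters' processing notes, without roles. For the annotation release, the strand setting and the filters, nothing is given in the sources used here.

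Counts were rounded, filtered with filterByExpr, scaled with TMM and tested on all 6 libraries without covariates by edgeR 4.0.16 (R 4.3.3; quasi-likelihood test, Benjamini-Hochberg adjustment over 13755 genes, threshold 0.05). The model was tested on simulated counts with planted changes and the same added spread for every gene. Spread may differ by gene in these libraries, so that test covers the calculation and not the fit to these data. Chi-square per degree of freedom between replicates was 2.02 to 3.68. Means are of CPM or TPM over 3 libraries. TPM sums were not tested. The members and lists were chosen with earlier results of these data known.

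Named genes were all members, Elf3, up to 4 called genes with the smallest p-values in each pathway list and the 3 genes nearest to each member, of which a part is given and 2 are not reported here. Positions come from GENCODE M21 (mm10), which held 55141 of the gene identifiers, and promoters from RefSeq. Alternatives were scaling by RLE size factors or by library totals, a replicate block, DESeq2 1.42.0 and limma-voom as other tools, filters of none and of a mean of 5 CPM, an adjusted p under 0.01, and each library left out. On TPM, limma 3.58.1 was run with log2(TPM + 1) and log2(TPM + 0.1), for genes averaging 0.5 TPM or more, and with log2(TPM + 1) for all genes.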

Additional observations from a re-analysis of the deposited data

How the results depend on the processing

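Mmp9, Mmp2, Mmp14 and Timp3 kept their direction and their call in all 17 alternatives, with log2 fold changes of 2.49 to 2.78, 0.66 to 0.81, 0.24 to 0.29 and 0.94 to 1.00. Between 4 and 6 members were higher in the knockout, the exceptions being Timp1 and Mmp13. Timp1 lost its call with log2(TPM + 1) without a filter, at an adjusted p under 0.01, and without knockout or control replicate 1. Mmp13 gained one without a count filter, with the replicate block, and without knockout replicate 3 or control replicate 2. With library totals 1 member (Timp2) was lower. Mmp10, at 44 and 42 counts, turned to -0.0086 with log2(TPM + 0.1). With each library left out it lay between -0.29 (without knockout replicate 2) and 0.21, with -0.08 without control replicate 1. The cause of these changes was not tested. On log2(TPM + 1), log2(TPM + 0.1) and unfiltered log2(TPM + 1), all genes called numbered 2712 (1421 higher, 1291 lower), 2716 (1412, 1304) and 2175 (1195, 980), against 5028, and genes of the pathway lists called lower numbered 18, 18 and 16, against 30. The summed TIMP level was 1.20 times the control on CPM. With the replicate block 6 members were higher and 5146 genes were called. Deviations of same-numbered libraries correlated at 0.002 to 0.014, which shows no pairing by number. Counting noise of low genes lowers such correlations, so pairing is not excluded. At this depth Mmp7, Mmp10 and, outside the members, Mmp16 rest on few counts.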
